A study of Mus musculus with 4 samples.

Results

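The Eph receptors examined here are 10 receptor tyrosine kinase genes: 5 of the EphA class (Epha2, Epha3, Epha4, Epha5, Epha7) and 5 of the EphB class (Ephb1, Ephb2, Ephb3, Ephb4, Ephb6). They were taken by gene symbol from the 55426 rows of the deposited table of FPKM values (fragment counts corrected for transcript length and sequencing depth), and all 10 symbols were found, each in 1 row. The samples were mouse retinal organoids at day 6, which are aggregates of pluripotent stem cells differentiated in culture towards retinal progenitors. All 4 libraries carry the genotype Mettl3 KO with a Dox-inducible HA-METTL3 in the Rx:GFP line, and all were grown in GMEM-based medium with AGN (0.1 µM). The 2 untreated libraries received no doxycycline (Dox), and the 2 Dox libraries received 2 µg/ml for 6 days. METTL3 is the catalytic subunit of the enzyme complex that places N6-methyladenosine on RNA. The comparison therefore asks how Eph receptor transcripts differ when the inducible METTL3 is meant to be on during early retinal differentiation. No library received Dox without carrying the inducible METTL3, so an effect of Dox itself cannot be told apart from one of METTL3. The titles read EV and EV+Dox, which the labels do not explain, and the labels name a single line, give no clone and do not say whether the replicates are separate cultures. The p-values measure the spread between these libraries, which may be technical.

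Eph receptors bind ephrins, ligands that are themselves tethered to the membrane of a neighbouring cell, so signalling needs cell contact and can run into both cells. EphA receptors mainly bind the lipid-anchored ephrin-A ligands and EphB receptors the transmembrane ephrin-B ligands, with Epha4 known to bind both. In the eye and brain the family sets tissue boundaries and guides axons: graded EphA and ephrin-A levels order the nasal to temporal axis of the retinal map, and EphB and ephrin-B levels the dorsal to ventral axis.

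The fitted depth ranged from 31900000 to 34700000 fragments per library, which puts between about 190 and about 8600 fragments behind each receptor value if its longest coding transcript is assumed. Mettl3 itself stood at 40.33 and 37.98 FPKM untreated and at 45.2 and 46.37 FPKM with Dox (adjusted p = 0.122 in limma). Exons of Mettl3 share 933 nt with Tox4 on the opposite strand, and strand use in counting is not given in the sources used here, so its values carry that uncertainty. The Mettl3 row also does not separate transcripts of the knocked-out gene from those of the inducible HA-METTL3, and protein was not measured. These values therefore do not show whether the knockout or the induction worked. The 12 retinal progenitor markers summed to 253.5 to 278.5 FPKM untreated and to 1199 to 1411 FPKM with Dox. Rax, the eye-field factor, was at 1.12 and 0.82 FPKM and Six6, another eye-field factor, at 0.01 FPKM in both untreated libraries. Rax and Six6 were thus absent or nearly absent there. Other markers of the list were present untreated: Pax6 at 127.76 and 118.86 FPKM, Sox2 at 109.56 and 97.34 FPKM and Lhx2 at 26.72 and 24.3 FPKM. With Dox, Rax was at 201.14 and 227.98 FPKM and Six6 at 79.22 and 92.44 FPKM. The 13 markers of dorsal forebrain and diencephalon moved the other way, from 376.5 to 390.1 FPKM in sum untreated to 60.19 to 64.53 FPKM with Dox.

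The family split with Dox. Epha3, Epha7 and Ephb3 fell, while the other 7 receptors did not pass the threshold in either direction. All 10 had a mean of at least 1 FPKM in both groups. The limma fit over 13931 genes called 3 of the 10 receptors lower, beside 4.87% of all tested genes, and 0 of the 10 higher, beside 4.44% (3 of 10 in either direction, beside 9.31%). With no adjustment, limma gave p below 0.05 for 2 receptors that were higher (12% of all tested genes) and 4 that were lower (11.9%), or 6 in either direction (23.9%). The median log2 fold change of the 10 receptors was 0.07 and that of all tested genes -0.0042. These are bulk samples, in which fewer cells of a type and less RNA per cell cannot be told apart.

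**Figure D1:**
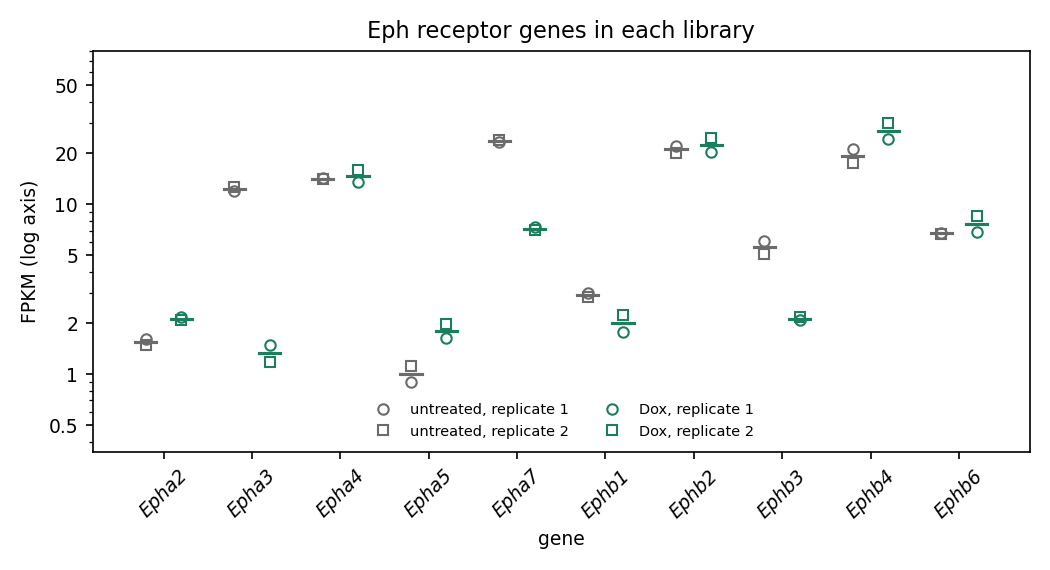
Level of the 10 Eph receptor genes in each library, in FPKM on a log axis; circles are replicate 1, squares replicate 2, and horizontal lines the group means. The Dox libraries of Epha3, Epha7 and Ephb3 sit far below the untreated ones, while those of Epha4 and Ephb2 overlap them.

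Epha3 (ENSMUSG00000052504) showed the largest change of the 10. EphA3 is a receptor for ephrin-A ligands that marks temporal retinal axons in the chick and is expressed widely in the embryonic brain. Without Dox, Epha3 read 11.97 and 12.60 FPKM, and with Dox 1.49 and 1.18 FPKM. Both Dox values lay far below both untreated values. The mean fell from 12.3 ± 0.446 to 1.34 ± 0.219 FPKM (SD, n = 2 each), and untreated organoids held 9.20-fold more. The log2 fold change on the log2(FPKM + 1) scale was -2.51 (SE 0.117, 95% confidence interval -2.80 to -2.22, adjusted p = 2.52e-04 in limma). Of the 13931 tested genes 39 had a lower fold change, or 0.28%. Leaving out any 1 library kept the call (log2 fold change -2.61 to -2.42, adjusted p 0.00381 to 0.00734 in limma).

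Epha7 (ENSMUSG00000028289) had the highest mean of the 10 without Dox. EphA7 also binds ephrin-A ligands and is known for its part in forebrain patterning and neural tube closure. It was listed at 23.09 and 23.98 FPKM untreated and at 7.32 and 7.07 FPKM with Dox, so the groups were well separated and the replicates of each lay close together. The mean fell from 23.5 ± 0.629 to 7.195 ± 0.177 FPKM (SD, n = 2 each), with 3.27-fold more in untreated organoids. The log2 fold change was -1.58 (SE 0.0796, 95% confidence interval -1.78 to -1.38, adjusted p = 3.27e-04 in limma). It ranged from -1.61 to -1.56 when single libraries were left out, and the call held each time.

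Ephb3 (ENSMUSG00000005958) was the EphB receptor that fell. EphB3 binds ephrin-B ligands and acts with EphB2 in guiding ventral retinal axons and commissural axons. It was listed at 6.11 and 5.12 FPKM untreated and at 2.07 and 2.17 FPKM with Dox, without overlap. The mean went from 5.615 ± 0.700 to 2.12 ± 0.0707 FPKM (SD, n = 2 each), with 2.65-fold more untreated. The log2 fold change was -1.08 (SE 0.124, 95% confidence interval -1.39 to -0.77, adjusted p = 0.00554 in limma). This call was less firm than the others: it was lost without Dox replicate 1 (adjusted p = 0.0565 in limma), without Dox replicate 2 (0.0546) and without the filter on low values (0.0571), while the log2 fold change stayed between -1.36 and -0.57 in all fits. Dropping 1 Dox library leaves that group with a single sample, which is then assumed to vary like the others.

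The 250 bases before the start sites of these 3 receptors are shown because they were the receptors that passed the test. They come from RefSeq on GRCm38.p6, which had an entry for all 10 receptors. They run 5′ to 3′ on the strand of the gene. Capitals mark the CCAAT box (CCAAT) and the GC box (GGGCGG), each searched on both strands. The windows are chr16:63864176-63864425 on the minus strand for Epha3, chr4:28812881-28813130 on the plus strand for Epha7 (the first of its 2 listed starts) and chr16:21204545-21204794 on the plus strand for Ephb3.
Epha3: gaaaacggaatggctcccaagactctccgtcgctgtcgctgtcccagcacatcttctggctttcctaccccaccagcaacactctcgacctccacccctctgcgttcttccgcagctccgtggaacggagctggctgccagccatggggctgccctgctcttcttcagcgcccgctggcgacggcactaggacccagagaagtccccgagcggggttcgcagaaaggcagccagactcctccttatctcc
Epha7: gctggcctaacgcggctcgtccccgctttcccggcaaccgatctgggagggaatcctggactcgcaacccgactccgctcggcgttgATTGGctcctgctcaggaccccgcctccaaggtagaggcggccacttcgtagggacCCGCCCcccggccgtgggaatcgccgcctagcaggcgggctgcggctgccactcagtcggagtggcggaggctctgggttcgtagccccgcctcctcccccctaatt
Ephb3: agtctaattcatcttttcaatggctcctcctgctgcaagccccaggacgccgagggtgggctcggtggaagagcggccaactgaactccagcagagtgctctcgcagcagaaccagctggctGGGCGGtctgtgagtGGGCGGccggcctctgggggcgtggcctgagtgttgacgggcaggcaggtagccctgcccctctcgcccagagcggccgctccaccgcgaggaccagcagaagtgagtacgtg
The Epha3 window held neither motif. The Epha7 window held 1 CCAAT box on the reverse strand, 163 bases before the start, and 1 GC box on the reverse strand at 107 bases. The Ephb3 window held 2 GC boxes, at 128 and 113 bases. Of 32851 mouse promoter windows of this length, 33.8% held a CCAAT box and 32.7% a GC box. A TATA box (TATAAA, in 12.4% of all windows) was not found in any of the 10 receptor windows, and the homeodomain core TAATTA (in 4.84%) was found in the Epha5 window alone. CpG dinucleotides numbered 16 in the Epha3 window, 25 in that of Epha7 and 16 in that of Ephb3, above the median of 6 over all windows. The other 7 receptors ranged from 9 to 27, so the 3 that fell were not set apart by CpG number. The 4 motifs searched do not overlap each other in these windows, and a match to these letters is a description only.

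Genomic positions are those of GENCODE M21 on GRCm38, the build that the submitters' processing notes call mm10. Epha3 lies on chromosome 16 at 63543534 to 63864175 and Ephb3 on the same chromosome at 21204755 to 21223305, 42.3 Mb apart. Epha7 lies on chromosome 4 at 28813131 to 28967499. Epha2 and Ephb2 also lie on chromosome 4, at 141301240 to 141329384 and 136647539 to 136835988, and Epha4 on chromosome 1 at 77367185 to 77515088. Epha5 and Ephb4 lie on chromosome 5, at 84054761 to 84417382 and 137350109 to 137378669. Ephb6 lies on chromosome 6 at 41605482 to 41620509 and Ephb1 on chromosome 9 at 101922128 to 102354693. FPKM values count exonic fragments over the gene. Exons of 8 of the 10 receptors overlap no other annotated gene. Those of Ephb1 share 152 nt with Gm26846 and those of Ephb4 share 33 nt with Zan, both on the opposite strand, so these 2 values carry that uncertainty. Among genes named outside the family, exons of Rax, Six6, Tbx3, Hmx1, Zic1, Emx2, Ngef, Krt8 and Tfap2a also overlap a gene on the opposite strand, as do those of Epha1 and Epha6.

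Among the EphA receptors that did not pass, Epha4 barely moved. EphA4 binds ephrins of both classes and is a guidance receptor of motor and forebrain axons. Epha4 was listed at 14.26 and 14.0 FPKM untreated and at 13.59 and 15.91 FPKM with Dox. The Dox values bracketed the untreated ones, and the log2 fold change was 0.05 (95% confidence interval -0.19 to 0.30, adjusted p = 0.793 in limma). Without Dox replicate 2 it was -0.05.

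Epha5 and Epha2 were the least abundant receptors without Dox. EphA5 is a receptor of retinal axons with a graded level along the nasal to temporal axis. Epha5 was listed at 0.90 and 1.11 FPKM untreated and at 1.63 and 1.97 FPKM with Dox, and each Dox value exceeded each untreated one. The group means were 1.005 ± 0.149 FPKM without and 1.80 ± 0.240 FPKM with Dox (SD, n = 2 each). The log2 fold change was 0.48 (95% confidence interval 0.12 to 0.84, unadjusted p = 0.0173, adjusted p = 0.113 in limma). EphA2 is best known from epithelia and early embryonic cells. Epha2 was listed at 1.62 and 1.48 FPKM untreated and at 2.16 and 2.08 FPKM with Dox, again without overlap, and its log2 fold change was 0.29 (95% confidence interval -0.01 to 0.60, adjusted p = 0.226 in limma). The 9 surface epithelium markers, a possible source of Epha2, summed to 50.65 to 55.78 FPKM untreated and 52.07 to 59.47 FPKM with Dox. Of the 4 that were tested 0 passed in limma, with 1 lower at an unadjusted p below 0.05. The most abundant, Krt8, was at 24.0 and 24.6 FPKM in the group means, and Krt14 was at 0 in every library. Their part in the Epha2 values was not tested.

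Ephb4 had the highest mean of the 10 with Dox, although its libraries overlapped those of Ephb2. EphB4 binds ephrin-B2 above all other ephrins and is known from vein endothelium. It was listed at 21.14 and 17.53 FPKM untreated and at 24.23 and 30.03 FPKM with Dox. The groups did not overlap, but the spread inside each was wide. The group means were 19.3 ± 2.55 FPKM without and 27.1 ± 4.10 FPKM with Dox (SD, n = 2 each). The log2 fold change was 0.47 (95% confidence interval 0.12 to 0.81, adjusted p = 0.110 in limma). It passed the threshold only after trends with GC content and transcript length were removed from each library (log2 fold change 0.45, adjusted p = 0.038 in limma), a setting chosen after the data were seen. Of 9 endothelial markers 1 was tested: Kdr, a VEGF receptor gene, rose from 0.22 and 0.25 FPKM to 13.91 and 17.63 FPKM (log2 fold change 3.75, adjusted p = 1.38e-04 in limma). Kdr passed the filter through the Dox libraries alone. The other 8, Pecam1 and Cdh5 among them, summed to 1.57 to 1.62 FPKM untreated and to 2.53 to 3.08 FPKM with Dox, with no single value above 0.89 FPKM. Some of the 8 were higher in both Dox libraries, such as Cdh5 (0.05 and 0.01 FPKM untreated, 0.43 and 0.61 FPKM with Dox). Others overlapped or were lower, as Pecam1 overlapped. The part of endothelial cells in the Ephb4 values was not tested.

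Ephb2, Ephb1 and Ephb6 made up the rest of the EphB class. EphB2 is, with EphB3, a receptor of ventral retinal axons. Ephb2 was listed at 22.06 and 20.15 FPKM untreated and at 20.19 and 24.62 FPKM with Dox, and the groups overlapped. Its log2 fold change was 0.08 (95% confidence interval -0.21 to 0.36, adjusted p = 0.737 in limma), and -0.06 without Dox replicate 2. EphB1 is the receptor that turns ventrotemporal retinal axons to the same side at the optic chiasm. Ephb1 was listed at 3.02 and 2.84 FPKM untreated and at 1.77 and 2.22 FPKM with Dox. Both Dox values were lower, with a log2 fold change of -0.40 (95% confidence interval -0.73 to -0.06, unadjusted p = 0.027, adjusted p = 0.147 in limma). EphB6 lacks kinase activity and signals through other Eph receptors. Ephb6 was listed at 6.75 and 6.72 FPKM untreated and at 6.86 and 8.50 FPKM with Dox, both above the untreated values, with a log2 fold change of 0.16 (95% confidence interval -0.14 to 0.46, adjusted p = 0.494 in limma).

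Counted over the family, 8 of the 10 receptors had no overlap between Dox and untreated values, 4 with Dox higher and 4 with Dox lower. Over all tested genes the share was 53.4%, with 26.5% higher and 26.9% lower. With 2 libraries against 2 the smallest two-sided exact permutation p is 0.333, which is the value for each of these 8.

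**Figure D2:**
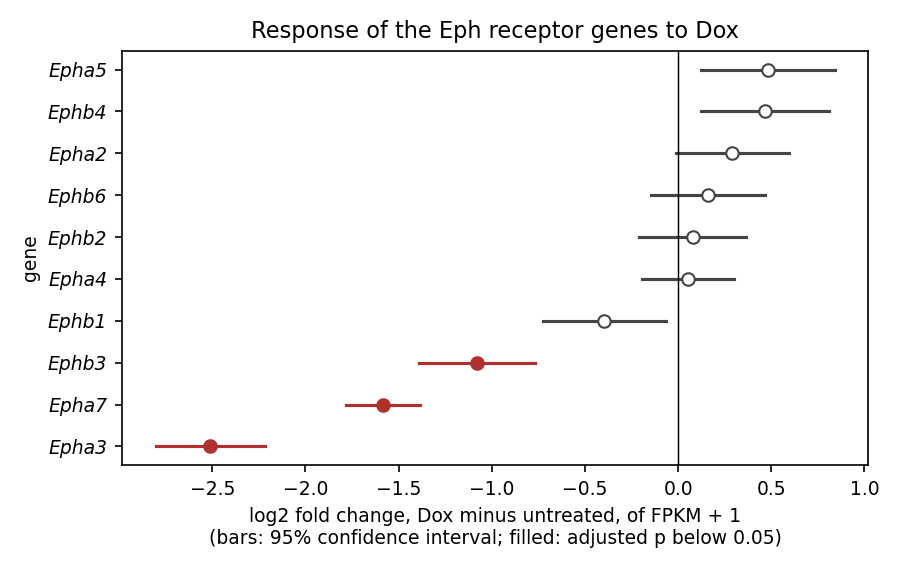
Log2 fold change of each Eph receptor gene, Dox minus untreated, on the log2(FPKM + 1) scale, with its 95% confidence interval from limma; filled red points passed the adjusted threshold. Epha3, Epha7 and Ephb3 lie at -2.51, -1.58 and -1.08, and the other 7 lie between -0.40 and 0.48.

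**Figure D3:**
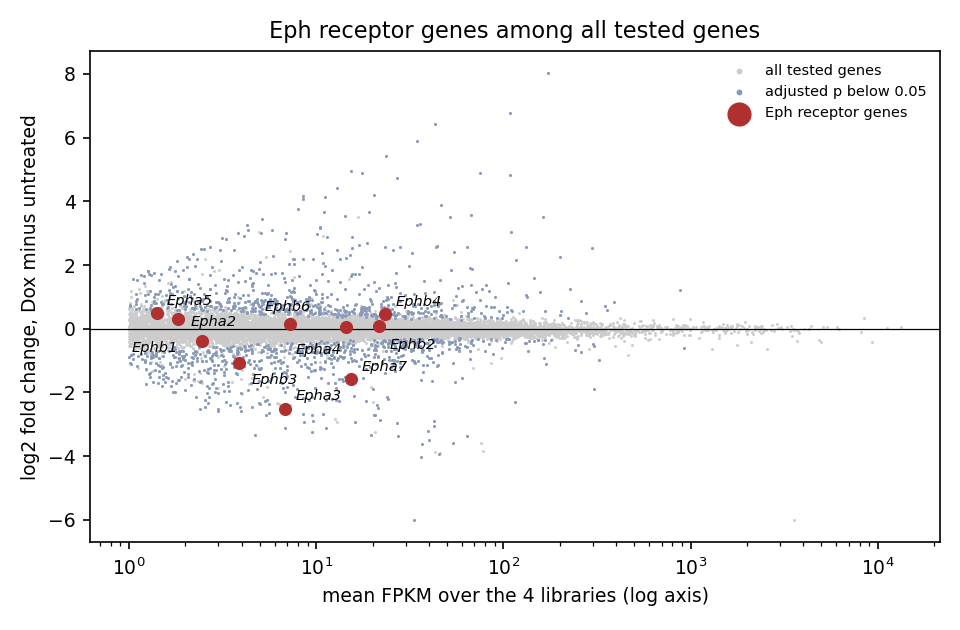
Log2 fold change, Dox minus untreated, against mean FPKM over the 4 libraries (log axis) for the 13931 tested genes, with those at an adjusted p below 0.05 in blue and the 10 Eph receptor genes in red. The receptors are of low to middle abundance, and Epha3 lies near the lower edge of the cloud at its level.

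The order of abundance differed between the groups. Without Dox the order was Epha7, Ephb2, Ephb4, Epha4, Epha3, Ephb6, Ephb3, Ephb1, Epha2 and Epha5, and the neighbours whose libraries overlapped were Ephb2 and Ephb4. With Dox Ephb4 and Ephb2 led, with overlapping libraries, followed by Epha4. Ephb6 and Epha7 came next and overlapped. Epha2, Ephb3, Ephb1 and Epha5 followed, each overlapping the next, and Epha3 was last. Epha3 thus went from place 5 to place 10, and Epha7 from place 1 to place 5.

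FPKM is scaled to transcript length, so the levels can be summed. The 5 EphA receptors summed to 51.84 and 53.17 FPKM untreated and to 26.19 and 28.21 FPKM with Dox. The Dox mean was 0.518 times the untreated mean, and both Dox sums lay below both untreated sums. The 5 EphB receptors summed to 59.08 and 52.36 FPKM untreated and to 55.12 and 67.54 FPKM with Dox, and these ranges overlapped. The ratio of EphA to EphB was 0.877 and 1.02 untreated and 0.475 and 0.418 with Dox. These sums are descriptions with no test. Epha3, Epha7 and Ephb3 together held 41.17 and 41.70 FPKM untreated and 10.88 and 10.42 FPKM with Dox, whereas the 7 other receptors held 69.75 and 63.83 FPKM and then 70.43 and 85.33 FPKM.

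**Figure D4:**
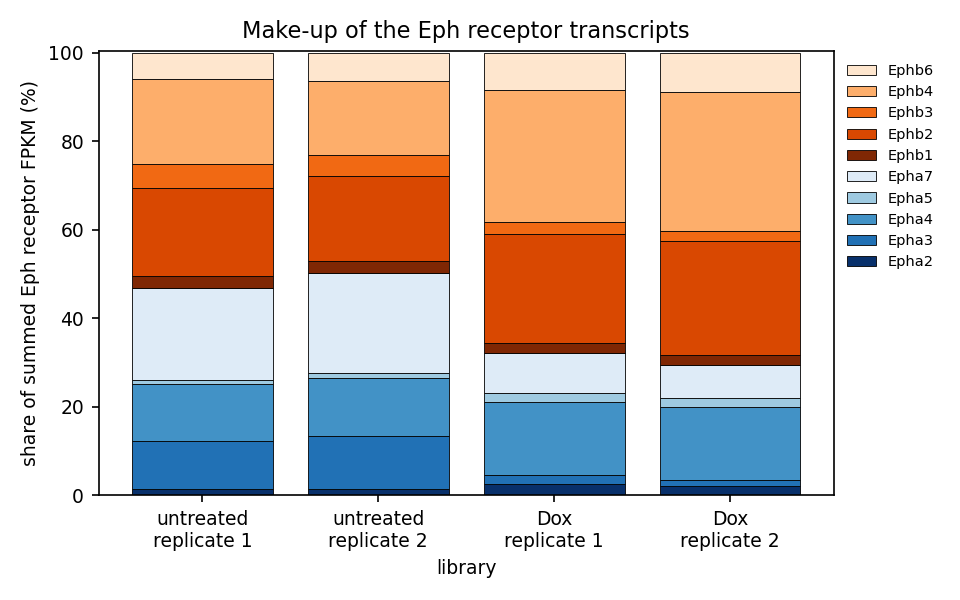
Share of each receptor in the summed FPKM of the 10 Eph receptor genes, in percent, for each library; EphA receptors are blue and EphB receptors orange. The share of Epha7 is 21.8% untreated and 8.19% with Dox in the group means, that of Epha3 11.4% and 1.53%, and that of Ephb4 17.8% and 30.6%.

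As shares of the summed receptor level, Epha7 took 20.8% and 22.7% untreated and 9.0% and 7.38% with Dox. Epha3 took 10.8% and 11.9% untreated and 1.83% and 1.23% with Dox. Ephb4 took 19.1% and 16.6% untreated and 29.8% and 31.4% with Dox, and Ephb2 19.9% and 19.1% against 24.8% and 25.7%. The share of Epha4 went from 13.1% to 16.7% in the group means. The larger shares of Ephb4, Ephb2 and Epha4 go with levels that did not pass the test, and follow in part from the smaller total.

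Of the 4 Eph receptor genes outside the 10, Epha10 was tested and fell. EphA10 is, like EphB6, a receptor without kinase activity. Epha10 was listed at 4.73 and 4.24 FPKM untreated and at 1.42 and 1.52 FPKM with Dox, a log2 fold change of -1.15 (95% confidence interval -1.45 to -0.85, adjusted p = 0.00374 in limma). Its exons share 79 nt with 1700125G02Rik on the opposite strand. The other 3 were below the filter. Epha8, whose gene lies 93.4 kb from Ephb2 on chromosome 4, was at 0.27 and 0.29 FPKM untreated and at 0.05 and 0.14 FPKM with Dox. Epha1 was at 0.58 and 0.59 FPKM and then 0.37 and 0.38 FPKM. Epha6 was at 0.01 to 0.03 FPKM in the 4 libraries, around the floor of 3 fragments (0.023 to 0.025 FPKM), and no difference was detectable at this depth.

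The ligands split as well, more widely within the ephrin-B class than within the ephrin-A class. All 8 ephrin genes were tested. Of these 3 rose (Efnb3, Efnb2 and Efna5), beside 4.44% of all tested genes, and 2 fell (Efnb1 and Efna2), beside 4.87%. The median log2 fold change of the 8 was 0.23. Efnb1 was listed at 48.25 and 46.33 FPKM untreated and at 20.59 and 25.13 FPKM with Dox (log2 fold change -1.02, adjusted p = 0.00379 in limma). Efnb2, the partner of EphB4, was at 31.14 and 29.59 FPKM and then 47.63 and 62.57 FPKM (0.83, adjusted p = 0.0189 in limma). Efnb3 was at 22.20 and 19.88 FPKM and then 41.76 and 50.04 FPKM (1.09, adjusted p = 0.00349 in limma). The most abundant ephrin-B gene was thus Efnb1 without Dox and Efnb2 with it, and the ephrin-B sum was 101.6 and 95.8 FPKM untreated and 110.0 and 137.7 FPKM with Dox.

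Changes of the ephrin-A ligands were smaller. Efna5, the ligand that repels temporal retinal axons in the midbrain, was at 7.17 and 6.59 FPKM untreated and at 10.07 and 11.64 FPKM with Dox (log2 fold change 0.59, adjusted p = 0.029 in limma). Efna2 was at 18.20 and 16.64 FPKM and then 12.04 and 12.57 FPKM (-0.47, adjusted p = 0.0282 in limma). Both calls were lost whenever any 1 library was left out (adjusted p 0.0739 to 0.172 for Efna5 and 0.105 to 0.193 for Efna2 in limma), after rescaling to a common sum (0.0604 and 0.104) and without the filter (0.11 and 0.0841). The call of Efnb2 was lost when untreated replicate 1 (0.0862), untreated replicate 2 (0.109) or the filter (0.119) was left out, and that of Efnb1 without the filter (0.0505). Efna4, Efna3 and Efna1 did not pass, with log2 fold changes of 0.19, 0.27 and -0.15 and group means of 25.7 and 29.5, 1.33 and 1.79, and 1.31 and 1.06 FPKM. Exons of Efna4 and Efna3 overlap a gene on the opposite strand. The ephrin-A sum was 54.85 and 50.41 FPKM untreated and 53.24 and 57.76 FPKM with Dox, and these ranges overlapped.

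**Figure D5:**
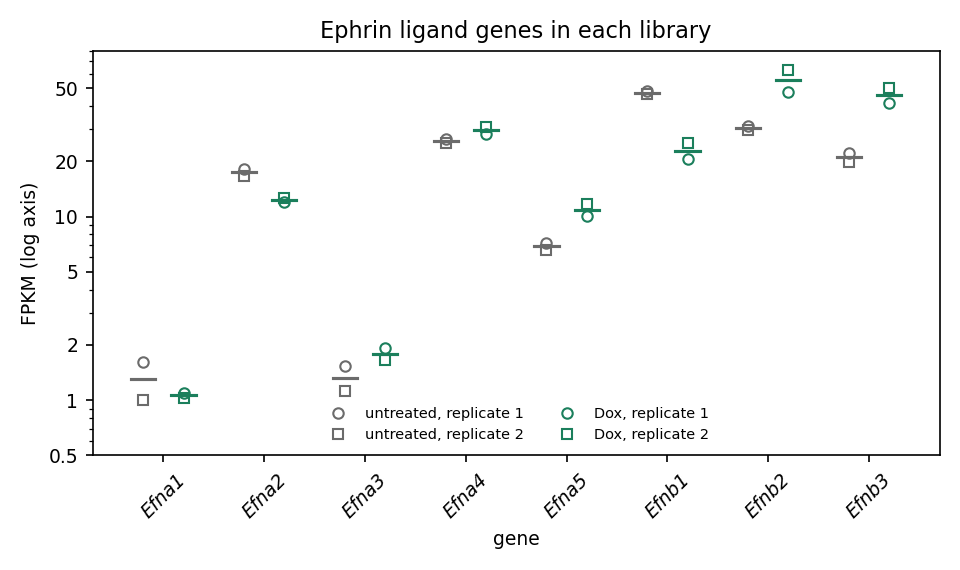
Level of the 8 ephrin ligand genes in each library, in FPKM on a log axis, drawn as for the receptors. Efnb1 is lower with Dox in both libraries, while Efnb2, Efnb3 and Efna5 are higher.

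Some intracellular partners of the receptors rose. Of 38 genes for Eph signalling partners (exchange factors, adaptors, kinases, phosphatases and a protease) 34 were tested, of which 4 rose and 0 fell in limma, beside 4.44% and 4.87% of all tested genes. With no adjustment 8 were higher and 2 lower at p below 0.05, beside 12% and 11.9% of all tested genes, and the median log2 fold change was 0.02. The named ones that rose were Grb10, an adaptor that binds receptor kinases, from 0.445 to 2.10 FPKM in the group means (1.10, adjusted p = 0.00833 in limma), Ngef, which encodes ephexin-1, an exchange factor activated by EphA receptors, from 1.37 to 3.31 FPKM (0.88, adjusted p = 0.0456), and the docking protein gene Dok1 from 8.60 to 12.7 FPKM (0.51, adjusted p = 0.0444). The other was Rgs3, which acts downstream of ephrin-B, from 9.715 to 14.2 FPKM (0.50, adjusted p = 0.0419), named after its value was seen. These calls were fragile. The count of 4 fell in each fit that left out 1 library. It became 1 without the filter, and 2 after rescaling to a common sum, without a trend and with the replicate block. With a minimum of 5 FPKM it was 2, but Grb10 and Ngef were below that filter and not tested. Rgs3 lost its call in each fit that left out 1 library (adjusted p 0.104 to 0.224 in limma). In the other direction 1 partner, Src, was called lower once GC and length trends were removed.

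Markers of other tissues moved in the same libraries as the receptors that fell. Over all tested genes, limma called 4.87% lower and 4.44% higher, the shares to set beside the counts that follow. Of 13 dorsal forebrain and diencephalon markers 10 were tested and 9 fell, with a median log2 fold change of -2.20. Zic1 (-4.04), Wnt8b (-3.92) and Emx2 (-3.06) fell most. All 7 tested neuron markers of 12 fell (median -1.70), among them Neurog2 (-2.15), Stmn2 (-1.87) and Elavl4 (-1.73), and the list summed to 155.8 to 159.8 FPKM untreated and 84.1 to 88.18 FPKM with Dox. Of 8 neural crest markers 5 fell (median -0.81), led by Sox10 (-3.12), Tfap2b (-2.45) and Foxd3 (-2.23), and the list summed to 42.91 to 44.16 FPKM untreated and 15.8 to 17.48 FPKM with Dox. The other 3 were higher in both Dox libraries than in both untreated ones, and 0 of them passed in limma: Snai2 (0.45, adjusted p = 0.0966), Twist1 (0.44, adjusted p = 0.0914) and Tfap2a (0.14, adjusted p = 0.49), named after their values were seen. Snai2 was called higher when limma was run without a trend (adjusted p = 0.0468). The count of neural crest markers that fell was 3 in each fit that left out 1 library and 3 without the filter. None of the markers of these 3 lists was at 0 in all 4 libraries. In each list some tested markers averaged below 1 FPKM with Dox and passed the filter through the untreated libraries alone. Neurog2, Elavl4, Sox10, Tfap2b and Foxd3 were among them. The filter thus favours markers high in 1 group, and the counts and medians share that limit. Of the neuron markers below the filter, some were lower in both Dox libraries and some overlapped. Retinal progenitor markers moved the opposite way, with 11 of 12 higher (median 4.66), Rax, Six6 and Tbx2 most. Rax, Six6 and Tbx2 averaged below 1 FPKM untreated and passed the filter through the Dox libraries alone. Pax6 was tested and not called. The part of any of these cell types in the levels of Epha3, Epha7 and Ephb3 was not tested.

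Most tested factors known to set the retinal axes, along which Eph receptors are graded, rose with Dox. Of 15 such genes 10 were tested, 9 rose and 1 fell, beside 4.44% and 4.87% of all tested genes. Their median log2 fold change was 3.13. Several of the 9, Tbx2, Tbx3 and Hmx1 among them, averaged below 1 FPKM untreated and passed the filter through the Dox libraries alone. Tbx2 (5.89) and Tbx3 (4.88), T-box factors of the dorsal eye, and Hmx1 (5.43), a homeobox factor of the developing eye, rose most. Tbx2 and Hmx1 also belong to the list of retinal progenitor markers, so the lists are not separate observations for these genes. Cyp26c1 was at 0 in every library. The gene that fell was Foxd1, a forkhead factor of the temporal retina (-1.92, adjusted p = 8.86e-04 in limma), named after its value was seen. Foxd1 was at 8.06 and 6.77 FPKM untreated, where Rax and Six6 were absent or nearly absent, and at 1.12 and 1.31 FPKM with Dox. These bulk values do not show which cells held it. The pluripotency markers summed to 71.45 to 75.23 FPKM untreated and 55.6 to 81.79 FPKM with Dox, and Klf4 was the single call among 8 (-0.71, adjusted p = 0.0348 in limma). That call was lost in each fit that left out 1 library (adjusted p 0.088 to 0.127).

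Sequence features of the receptor transcripts were set beside those of all tested protein-coding genes. The longest coding transcript of the 10 ranged from 3762 nt for Ephb6 to 10902 nt for Ephb2, with a median of 5206 nt against 3151 nt over 11652 tested protein-coding genes. GGACT, a common form of the sequence in which METTL3 methylates adenosine, was counted on the sense strand of these transcripts. Its density was 1.15 to 2.30 per kb in the 10 receptors, with a median of 1.92 per kb against 1.05 per kb in the tested coding genes. The lowest density, that of Ephb4, exceeded 56.9% of the coding genes, and the highest, that of Epha2, 93.4%. Median GC content was 54.0% in the receptors and 50.3% in the coding genes, and its part in these densities was not tested. Epha3 had 1.94 per kb, Epha7 1.33 per kb and Ephb3 1.90 per kb, inside the range of the 7 receptors that did not pass. These are counts of letters and not of modified sites, since methylation was not measured in these libraries.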

How the data were processed

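Poly(A)-selected RNA of 4 organoid libraries was sequenced in paired ends, per the labels' protocols. The authors deposited FPKM values to 2 decimals, with a separate column for each library. The submitters' processing notes name STAR, Cuffdiff and mm10 without versions or roles. The annotation release and strand setting are not given in the sources used here. Columns were matched to samples by library name, and groups were taken from the treatment label; 0 value columns lacked a sample.

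Values were transformed to log2(FPKM + 1), which understates changes of low genes. Genes averaging at least 1 FPKM (13931) were fitted with limma 3.58.1 in R 4.3.3 (lmFit, eBayes with trend, no covariate), two-sided, with Benjamini-Hochberg adjustment over all tested genes and a threshold of 0.05. The 2 libraries per group limit precision, so gene-wise tests lean on limma's prior (3.50 degrees of freedom). The fit was tested on simulated data.

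Depth was fitted from the steps of low values (below 0.5 FPKM) of single-transcript genes of 450 to 1200 nt: 89.3% to 90.5% came within 0.2 of a whole fragment, against 38.9% to 40.0% with shuffled lengths. Fragment numbers and floors cover counting error only. Promoters and positions came from RefSeq (GRCm38.p6) and GENCODE M21.

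Members and lists were chosen with earlier results of these data known. Named were all 10 receptors, the 4 other Eph genes, the 8 ephrins, Mettl3, and per further list up to 3 called genes with the largest change, or the most abundant gene where none was called. Further markers (Pecam1, Cdh5, Krt14, Cyp26c1, Pax6, Sox2, Lhx2, Foxd1, Rgs3, Src, Snai2, Twist1, Tfap2a) were named after their values were seen. Alternatives were pseudocounts of 0.1 and 5, no filter or 5 FPKM, rescaling to a common sum, median centring, quantile normalization, no trend, robust estimation, a replicate block and each library left out. Removal of GC and length trends was added after the data were seen.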

Additional observations from a re-analysis of the deposited data

How the results depend on the processing

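Epha3 and Epha7 were called lower in all 15 alternatives. Ephb3 lost its call in 3 of the 14 that tested it, as given above. The count of receptors called lower was 2 or 3 throughout, and that called higher was 0 except with GC and length trends removed, where it was 1 (Ephb4). Over all genes, 336 were called higher and 409 lower without a filter, which tests 27532 genes, and 408 and 413 with a minimum of 5 FPKM, which tests 10342. Leaving out each library, which leaves fewer samples, gave 262 to 320 higher and 331 to 377 lower. The Dox minus untreated difference of summed EphA levels was -25.3 FPKM, and -26.3 to -24.3 FPKM with single libraries left out. After rescaling to a common sum it was -29.5 in the rescaled unit. The common sum exceeds the FPKM sum of every library (793308 to 866239), so rescaling enlarges every value. For EphB the difference was 5.61 FPKM and ranged from -0.60 (without Dox replicate 2) to 11.8. Among the named genes tested in this way, fold changes near 0 that changed sign when a library was left out were those of Epha4 (-0.0524 to 0.161), Ephb2 (-0.0596 to 0.214), Efna1 (-0.347 to 0.0425), Pax6 (-0.0121 to 0.0912) and Krt8 (-0.0218 to 0.0913). A fit with the replicate block called 532 genes higher and 602 lower, and the same 3 receptors remained called. Efna2 (adjusted p = 0.0615 in limma), Dok1 (0.0553) and Rgs3 (0.0697) lost their calls. Nothing in the labels pairs same-numbered libraries, and their deviations correlated at -0.04 across genes.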
